A study of Arabidopsis thaliana with 6 samples.

Results

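Cytochrome P450 enzymes are haem proteins that insert oxygen into small molecules, and in plants they form one of the largest enzyme families. They act in the synthesis and breakdown of hormones, sterols, pigments, lignin precursors, wall lipids and defence compounds such as glucosinolates and camalexin. Their names give the family as a number, the subfamily as a letter and the gene as a second number. Most are held in the endoplasmic reticulum membrane and receive electrons from a shared reductase. In seeds they are best known for setting hormone levels and for reactions in the seed coat and fruit wall.

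The P450 genes described here are those whose symbol in the array's annotation begins with CYP, digits, a capital letter and digits, and whose probe set is paired with that gene only. The rule found 23 genes among the 13356 genes with such a probe set, and each of the 23 had 1 probe set. One of them, CYP71B30P, carries a final P as the old mark of a pseudogene, and the counts of calls and of separated genes below are the same without it. A further 2 probe sets were left out because they are paired with several genes, 2 because their names (CYP59 and CYP71) belong to cyclophilins, and 1 because its name, CYP718, has no letter. The gene table of assembly TAIR10.1 holds 236 symbols of this form, so 213 P450 genes were not analysed here. Below, a gene is called measured when the annotation pairs a probe set with that gene only. A gene not measured in this sense may still be on the array, since 8730 probe sets have no listed gene. By family, the 23 were 19 genes of family 71, all of subfamily CYP71B, and 1 gene each of families 51, 78, 79 and 84. Families 71, 78, 79 and 84 belong to the CYP71 clan, the large plant group of P450s, and family 51 is a clan of its own that carries out a step of sterol synthesis.

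Affymetrix ATH1 arrays were used on samples labelled as dry Arabidopsis thaliana seeds. They came from the hda9-1 mutant and the wild-type accession Col, with 3 biological replicates per genotype. hda9-1 is a T-DNA insertion allele of HISTONE DEACETYLASE 9, whose protein removes acetyl groups from histones, and a single allele stands for the mutant here. Siliques were taken 18 to 19 days after pollination and those of at least 5 plants were pooled for each replicate. The plants grew at 22 °C during a light period of 16 h and at 16 °C during the 8 h of darkness. The tissue is dry seeds by the sample labels and dry siliques by the series' design text, and which of these is right is not settled here.

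All values are log2 expression per probe set as the authors deposited them, and log2 changes are hda9-1 minus Col. A gene was called when its limma p-value was under 0.05 after Benjamini-Hochberg adjustment across the 22746 probe sets tested. Precision is limited by there being 3 arrays of each genotype. Probe sets differ in how strongly they bind their target, so the signals of different genes are not compared as amounts of transcript. HDA9 itself had no paired probe set, which left the genotype of the arrays unchecked. The 3 measured seed markers of a list of 16 read 13.14 to 14.28 on every array, and none was called. These values lie close to the highest of the data, 14.94, and whether signals this high follow a change was not tested. The 3′ excess of the actin control probe sets was 3.72 to 4.19 log2 units on the hda9-1 arrays, against 3.56 and 3.57 on Col replicates 1 and 2 and 4.10 on Col replicate 3. For GAPDH it was 2.68 to 2.98 on the hda9-1 arrays, against 2.61 and 2.62 on Col replicates 1 and 2 and 3.23 on Col replicate 3. For ubiquitin it was 1.07 to 1.20 on the hda9-1 arrays and 0.94 to 1.12 on the Col arrays. The part of this 3′ excess in the results was not tested. In bulk RNA, fewer cells of a type and less transcript per cell cannot be told apart.

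The comparison asked which P450 transcripts differ between the mutant and wild-type samples, whose tissue is given as dry seeds or dry siliques. CYP84A4, an enzyme of the phenylpropanoid branch that makes arabidopyrones, and CYP71B37 fell in hda9-1, by 0.48 and 0.68 on the log2 scale. No P450 gene was called higher in this fit, by genotype alone. Thus 2 of 23 P450 genes were called, or 8.70%, where 3.27% of all genes were (1.02% higher and 2.25% lower). With the replicate number as a block, CYP71B24 and CYP71B26 were also called, as higher in hda9-1, so that 4 of 23 were called, or 17.4%, beside 5.38% of all genes (2.07% higher and 3.32% lower). Over all probe sets, named or not, 3.82% were called (1.37% higher and 2.45% lower), and 6.39% with the block. For 8 P450 genes the genotypes did not overlap, with hda9-1 above Col in 5 and below it in 3. That is 34.8%, beside 22.4% of all genes (10.4% above and the rest below). An unadjusted p under 0.05 was reached by 7 of 23, beside 17.4% of all genes.

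**Figure D1:**
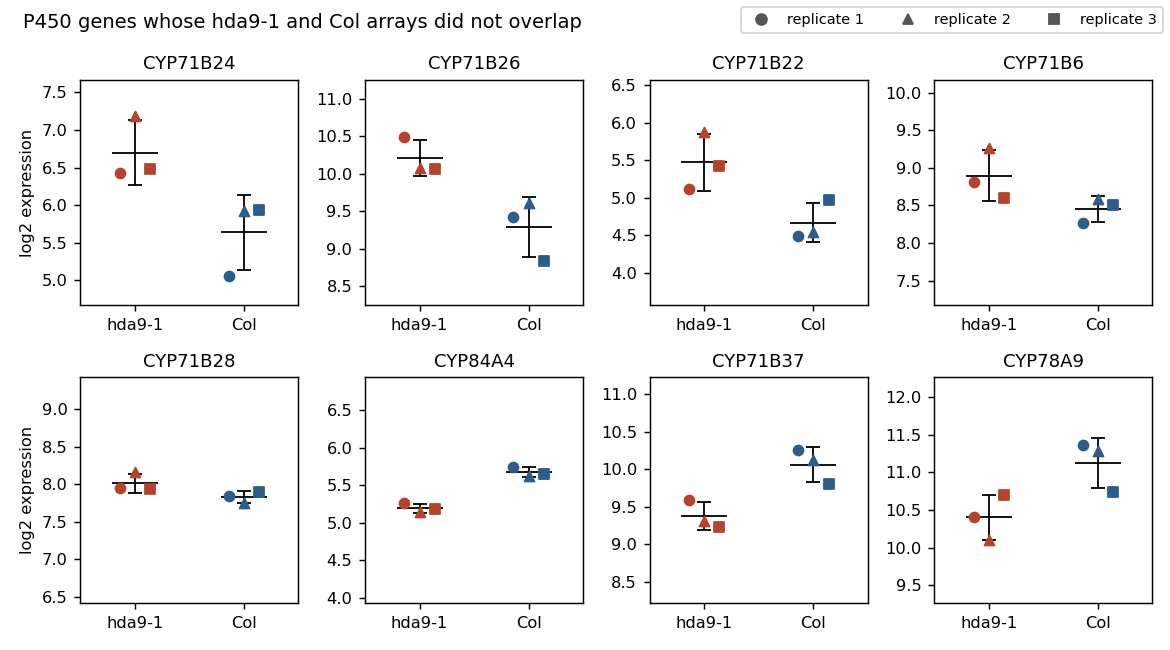
Log2 expression (vertical axis, spanning the same number of log2 units in each panel) of the 8 P450 genes whose genotypes did not overlap, for hda9-1 (red) and Col (blue). Each symbol is 1 array, shaped by replicate number, and the bar with whiskers is the mean ± SD (n = 3). The hda9-1 arrays lie above the Col arrays for the 5 CYP71B genes in the first 5 panels and below them for CYP84A4, CYP71B37 and CYP78A9.

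The signs of the changes were mixed. Log2 changes ran from −0.73 for CYP78A9 to 1.06 for CYP71B24, with 10 positive and 13 negative. Their median was −0.03, and that of all genes was −0.01. The median size of the change, leaving the sign aside, was 0.11 for the P450 genes and also 0.11 for all genes.

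CYP84A4, the single family 84 gene measured, is a close relative of ferulate 5-hydroxylase of lignin synthesis. It read 5.26, 5.14 and 5.18 on the hda9-1 arrays, against 5.74, 5.62 and 5.65 on the Col arrays. The arrays of each genotype lay close together and the genotypes were well apart. Its mean was 5.20 ± 0.06 in hda9-1 and 5.67 ± 0.06 in Col (SD, n = 3 each). The log2 change was −0.48, with an SE of 0.09 and a 95% interval from −0.68 to −0.28 (limma adjusted p = 0.0321), which is a 1.39-fold lower signal in hda9-1. The call was kept with the replicate block (adjusted p = 0.0338). It was lost when the variance prior followed the signal (adjusted p = 0.0612, and 0.0546 with a robust prior). When 1 array at a time was left out, 5 of 6 fits lost the call, with adjusted p-values up to 0.123, and the fit lacking Col replicate 2 kept it (adjusted p = 0.0490).

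CYP78A9, the single family 78 gene measured, promotes the growth of fruits and of the ovule integuments that become the seed coat. It read 10.40, 10.10 and 10.70 on the hda9-1 arrays, against 11.36, 11.28 and 10.74 on the Col arrays. All 3 hda9-1 values lay below all 3 Col values, although hda9-1 replicate 3 came within 0.05 of Col replicate 3. The log2 change was −0.73 (SE 0.20, 95% interval −1.20 to −0.25), which did not pass over all probe sets (limma adjusted p = 0.0995, and 0.110 with the replicate block). Without Col replicate 3 the change was −0.92 and passed (adjusted p = 0.0489), and with array weights it was −0.88 and passed (adjusted p = 0.0302).

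CYP79A2 and CYP51G2 were dim, and neither was called. CYP79A2 converts phenylalanine to its aldoxime, the first step towards benzylglucosinolate. It read 3.69 to 3.79 on the hda9-1 arrays, against 3.78 to 3.91 on the Col arrays, a log2 change of −0.09 (95% interval −0.29 to 0.11). CYP51G2 belongs to the sterol demethylase family but is a transcribed pseudogene in TAIR10.1. It read 4.13 to 4.20 on the hda9-1 arrays, against 3.73 to 4.21 on the Col arrays, a log2 change of 0.21 (95% interval −0.09 to 0.51). In both genes the genotypes overlapped.

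**Figure D2:**
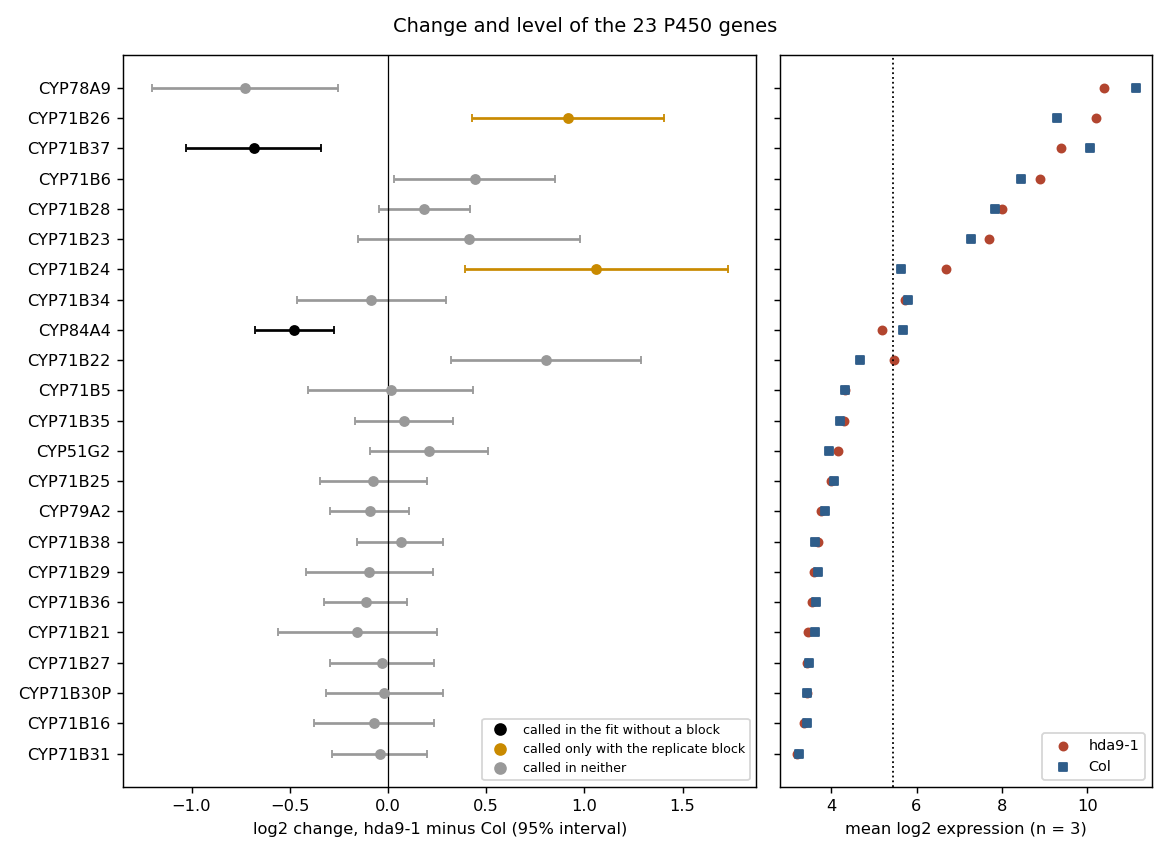
Left, the log2 change of each of the 23 P450 genes, hda9-1 minus Col, with its 95% interval from limma, in black where called, gold where called only with the replicate block and grey otherwise. Right, the mean log2 expression of each gene in hda9-1 (red circles) and Col (blue squares), n = 3, with the dotted line at 5.44, the median of all probe sets. Genes run from the highest mean signal at the top to the lowest at the bottom, and the changes furthest from 0 stand among the upper 10.

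The separated genes were mostly those with a higher signal. Of the 23 genes, 8 had a mean signal above the median of all probe sets, as had 6036 of 13356 genes. Among those 8, the genotypes did not overlap for 6, beside 31.6% of all genes above that median, and 1 was called (5.75% of such genes). Among the other 15, they did not overlap for 2, CYP71B22 and CYP84A4, beside 14.8% of genes at or below the median, and 1 was called (1.23% of such genes). The remaining 13 dim genes had log2 changes between −0.16 and 0.21, with 95% intervals that reached 0.20 to 0.42 to either side. Background signal compresses the differences of dim probe sets, so these intervals bound changes of signal and not of transcript.

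Subfamily CYP71B, 19 of the 36 members that TAIR10.1 names, was the only P450 subfamily with more than 1 measured gene. CYP71B37 was its only call without a block, 1 of 19 or 5.26%, beside 3.27% of all genes. With the block 2 rose and 1 fell, 3 of 19 or 15.8%, beside 5.38% of all genes. Its changes ran from −0.68 to 1.06, with 9 positive and 10 negative and a median of −0.02. Most of these genes lie in runs of neighbouring P450 genes. The longest run, on chromosome 3 from CYP71B16 to CYP71B37, holds 18 P450 genes among its 25 genes in TAIR10.1, and 11 of the 18 were measured. Most of its other genes lie together between CYP71B24 and CYP71B25, so this run is broken there into separate stretches of P450 genes. A second run on chromosome 3, from CYP71B5 to CYP71B32, holds 4, of which 3 were measured, and a run on chromosome 1, from CYP71B27 to CYP71B7, holds 5, of which 3 were measured. CYP71B6 and CYP71B38 were measured outside these runs. Neighbours of this kind are similar in sequence, and signal shared between their probe sets was not tested.

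CYP71B37, the last gene of the long run, read 9.59, 9.31 and 9.24 on the hda9-1 arrays, against 10.26, 10.13 and 9.80 on the Col arrays. Its mean was 9.38 ± 0.19 in hda9-1 and 10.06 ± 0.23 in Col (SD, n = 3 each). The groups did not overlap, and the signal was 1.61-fold lower in hda9-1. The log2 change was −0.68 (SE 0.15, 95% interval −1.03 to −0.34, limma adjusted p = 0.0497, or 0.0193 with the replicate block). The call stood at the edge of the threshold. It was lost with median centring of the arrays (adjusted p = 0.0554). Of the fits that leave out 1 array it passed only without Col replicate 3 (adjusted p = 0.0358), and without Col replicate 1 the adjusted p was 0.160.

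CYP71B26, 5 places before CYP71B37 in TAIR10.1, had the opposite sign. It read 10.49, 10.07 and 10.07 on the hda9-1 arrays, against 9.43, 9.60 and 8.84 on the Col arrays. The lowest hda9-1 array stood above the highest Col array, and Col replicate 3 was the lowest of the 6. The log2 change was 0.92 (SE 0.21, 95% interval 0.43 to 1.41), a 1.89-fold higher signal. It did not pass without a block (limma adjusted p = 0.0598) and passed with the block (adjusted p = 0.0309). It also passed with a variance prior that follows the signal (0.0439), with array weights (0.0343), with dim probe sets left out (0.0428) and without Col replicate 2 (0.0482).

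CYP71B24 had the largest change of the 23 P450 genes. It read 6.42, 7.19 and 6.48 on the hda9-1 arrays, against 5.06, 5.92 and 5.93 on the Col arrays, with no overlap. The log2 change was 1.06 (SE 0.29, 95% interval 0.39 to 1.73), a 2.08-fold higher signal. It did not pass without a block (limma adjusted p = 0.0929) and passed with it (SE 0.17, adjusted p = 0.0277), as it did with array weights (adjusted p = 0.0437).

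CYP71B22 and CYP71B23, which adjoin each other and lie close to CYP71B24 in the run, also had positive changes and were not called. CYP71B22 read 5.12, 5.88 and 5.42 on the hda9-1 arrays, against 4.49, 4.55 and 4.97 on the Col arrays. Its log2 change was 0.80 (SE 0.21), with a limma adjusted p of 0.0817, or 0.0547 with the block. CYP71B22 passed with array weights alone (adjusted p = 0.0462). CYP71B23 read 7.32, 8.22 and 7.54 on the hda9-1 arrays, against 6.96, 7.51 and 7.37 on the Col arrays. The groups of CYP71B23 overlapped, and its log2 change was 0.41 (SE 0.24, adjusted p = 0.430). CYP71B22, CYP71B23 and CYP71B24 each had their highest value on hda9-1 replicate 2 and their lowest on Col replicate 1. Without hda9-1 replicate 2 the changes were 0.60 for CYP71B22, 0.81 for CYP71B24 and 0.15 for CYP71B23, and the last of these is the lowest among the fits that leave out 1 array.

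The other 6 measured genes of the long run lay nearer to 0. CYP71B16, CYP71B21, CYP71B25, CYP71B35 and CYP71B36 were dim, with log2 changes from −0.16 for CYP71B21 to 0.08 for CYP71B35. CYP71B34, with a signal just above the median of all probe sets, read 5.51, 5.91 and 5.74 on the hda9-1 arrays, against 5.49, 5.91 and 6.01 on the Col arrays. Its 95% interval ran from −0.46 to 0.30. All 6 had overlapping genotypes and adjusted p-values of at least 0.584.

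**Figure D3:**
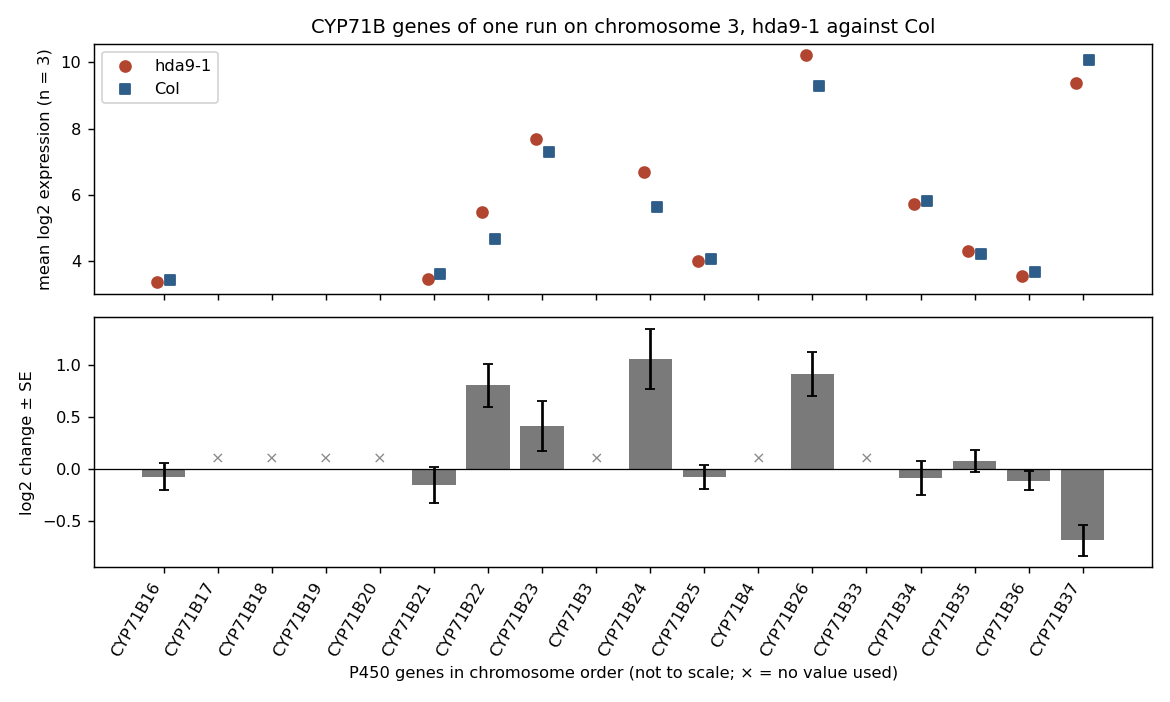
The 18 P450 genes of the long run on chromosome 3, in chromosome order and not to scale. Other genes of the run are not drawn, and most of them lie between CYP71B24 and CYP71B25. Top, mean log2 expression (n = 3) in hda9-1 (red circles) and Col (blue squares). Bottom, the log2 change, hda9-1 minus Col, with its SE from limma, where a cross marks a gene for which no value was used. CYP71B22, CYP71B23, CYP71B24 and CYP71B26 have positive changes, and CYP71B37 at the end of the run has a negative one.

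Of the 8 CYP71B genes elsewhere, none was called in either fit. CYP71B6, which oxidises indole-3-acetonitrile, a compound of indole defence metabolism, to indole-3-carbaldehyde, read 8.81, 9.27 and 8.60 on the hda9-1 arrays, against 8.26, 8.59 and 8.50 on the Col arrays. The genotypes were apart by a narrow margin, and the log2 change was 0.44 (SE 0.18, 95% interval 0.03 to 0.85, limma adjusted p = 0.227). CYP71B28, in the chromosome 1 run, read 7.94, 8.16 and 7.94 on the hda9-1 arrays, against 7.84, 7.74 and 7.90 on the Col arrays. Its genotypes were also separated by a narrow margin, and the log2 change was 0.18 (SE 0.10, adjusted p = 0.383).

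The remaining 6 were dim, with overlapping genotypes. In the chromosome 1 run, CYP71B29 had a log2 change of −0.09 (95% interval −0.42 to 0.23) and CYP71B27, a transcribed pseudogene in TAIR10.1, one of −0.03 (−0.29 to 0.24). In the second run on chromosome 3, CYP71B31, which oxidises the floral terpene linalool, had the lowest signal of the 23. It read 3.22, 3.14 and 3.25 on the hda9-1 arrays, against 3.17, 3.15 and 3.42 on the Col arrays. In the same run, CYP71B5 and CYP71B30P had log2 changes of 0.01 (95% interval −0.41 to 0.43) and −0.02 (−0.31 to 0.28). TAIR10.1 lists CYP71B30P as protein coding despite its name. CYP71B38 had a log2 change of 0.06 (−0.15 to 0.28).

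**Figure D4:**
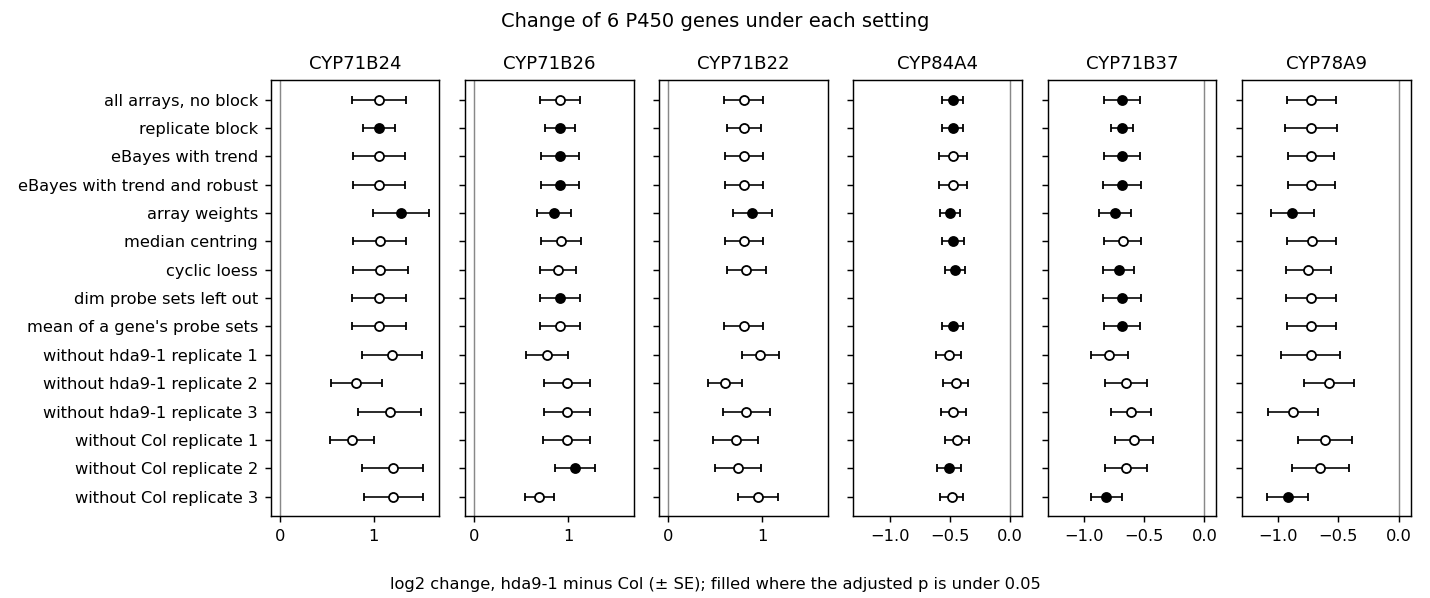
Log2 change of 6 P450 genes, hda9-1 minus Col, with its SE, under each setting listed on the vertical axis. Filled circles have a limma adjusted p under 0.05 and open circles do not. A gap means that the gene was not among the probe sets tested in that setting. All plotted changes keep their sign, while the calls differ between settings.

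The other genes of the pathways in which P450 enzymes work were thinly covered. Of 174 genes in 12 lists, 18 had a probe set paired with that gene only, and the lists of abscisic acid, gibberellin and cytokinin had none. The others were not assessed, which does not mean that the array lacks them. Of the 18, 2 rose and none fell, where 1.02% of all genes rose and 2.25% fell. With the block 5 of 18 rose, beside 2.07% of all genes. In glucosinolate synthesis and breakdown, the route that CYP79 enzymes open, 1 of 5 measured genes rose. This was AOP3, which makes hydroxyalkyl glucosinolates and read 9.68, 9.93 and 9.53 on the hda9-1 arrays, against 8.19, 8.82 and 8.99 on the Col arrays (log2 change 1.05, SE 0.21, limma adjusted p = 0.0421). The call of AOP3 was lost after cyclic loess (adjusted p = 0.0562), and with 1 array left out it stood only without Col replicate 3 (0.0397). All 5 changes were positive, with a median of 0.69, and 4 of 5 passed with the replicate block. The glucosyltransferase gene UGT74B1 was at 0.69 (adjusted p = 0.0651, or 0.0387 with the block), AT2G31790 at 0.64 (0.0803, or 0.0309) and the aminotransferase gene BCAT4 at 0.46 (0.109, or 0.0380). GSTU20 was at 0.94 with wide error (SE 0.48). The 1 measured CYP79 gene, CYP79A2 of the benzylglucosinolate branch, was dim (mean signal 3.8) and at −0.09, as given above. It does not stand for the other CYP79 genes.

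In the phenylpropanoid and lignin list, 1 of 2 measured genes rose. HCT, the acyltransferase that supplies the substrate of the lignin P450 CYP98A3, read 8.94, 8.86 and 8.90 on the hda9-1 arrays, against 8.35, 8.57 and 8.47 on the Col arrays (log2 change 0.44, SE 0.09, limma adjusted p = 0.0475). HCT was not called with the block (adjusted p = 0.0587), with trend (0.0706), with trend and robust (0.0716), after cyclic loess (0.0615), with dim probe sets left out (0.0521) or in any fit that left out 1 array (0.0533 to 0.160). CCR2, a cinnamoyl-CoA reductase, was at 0.83 (adjusted p = 0.0553) and passed with the block (0.0404). The changes of both genes thus had the opposite sign to that of CYP84A4.

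Among the other lists none of the measured genes was called. The redox partner list had 2 of 10 genes measured, and no gene of the shared P450 reductase was among them. They were AT3G02280, a diflavin reductase also named TAH18, at 0.20 (limma adjusted p = 0.349), and AT5G20080, at −0.17 (adjusted p = 0.770). Whether either of them passes electrons to a P450 enzyme was not assessed. CPI1 of sterol synthesis was at 0.17. OPCL1, a ligase of jasmonate synthesis, was at 0.57 (adjusted p = 0.0518, or 0.0599 with the block). DFR of flavonoid synthesis was at 0.41 with an SE of 0.67, BAN at 0.10, the carotenoid gene LYC at 0.35 (adjusted p = 0.251) and Z-ISO at −0.02. WSD1 of wax synthesis and the triterpene gene LUP5 were both at 0.00, and AT5G47980 was at 0.10.

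**Figure D5:**
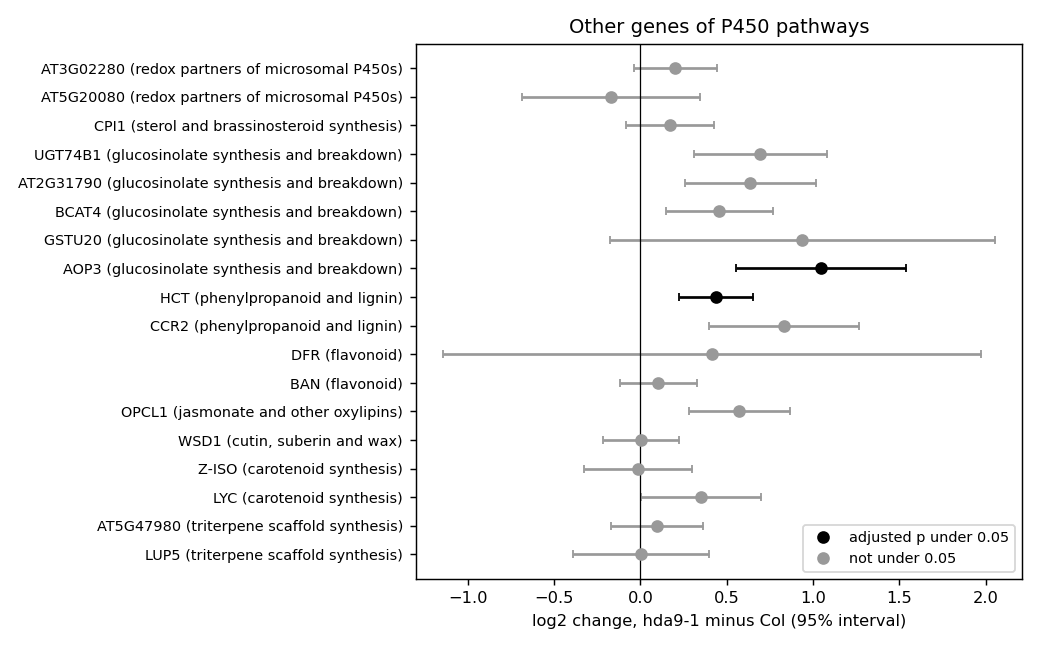
Log2 change, hda9-1 minus Col, with its 95% interval from limma, for the 18 measured non-P450 genes of the pathway lists, each named with its list. Black points are called and grey points are not. AOP3 and HCT are called, both above 0, and all 5 glucosinolate genes have positive changes.

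Some tissue markers were called as well, where 1.02% of all genes were called higher and 2.25% lower. Both measured pollen genes of a list of 5 fell. AT5G07430 was at −0.90 (SE 0.16, limma adjusted p = 0.0306) and AT5G45880 at −1.06 (SE 0.19, adjusted p = 0.0301). The mean signal of these pollen genes was 7.90 to 8.55 on the hda9-1 arrays, against 9.25 to 9.34 on the Col arrays. Of 2 measured genes of the silique wall list of 7, the dehiscence gene ADPG1 fell (log2 change −0.51, SE 0.10, limma adjusted p = 0.0399). ALC was at 0.39 and not called (adjusted p = 0.285). The mean of those 2 was 9.34 to 9.57 on the hda9-1 arrays and 9.37 to 9.65 on the Col arrays. The seed coat list of 7 had 3 measured genes, of which DELTA-VPE rose (1.45, SE 0.31, adjusted p = 0.0496), and the list mean was 5.04 to 5.35 on the hda9-1 arrays, against 4.50 to 4.86 on the Col arrays. The other 2 seed coat genes overlapped between genotypes, BAN at 0.10 (adjusted p = 0.656) and AT3G50990 at −0.11 (adjusted p = 0.725). AGL62, the 1 measured endosperm gene of 4, was at 0.05 (adjusted p = 0.918), and no green leaf marker of 5 was measured. The part of these tissues in the P450 results was not tested.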

How the data were processed

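RNA of 3 hda9-1 and 3 Col samples was hybridised to ATH1 arrays. RNA was extracted with Trizol by the sample labels but with a kit by the design text. The authors deposited 1 table of log2 values per probe set, made with RMA, affy and limma per the submitters' processing notes, with versions and settings not given in these sources. Its values run from 2.58 to 14.94. RMA equalises the distributions of the arrays, so a shift of most transcripts one way would not be seen. Of 22810 probe sets, 64 controls were left out. Genes were named through the platform's annotation, updated by identifier to TAIR10.1, which left 13513 probe sets with 1 gene, 503 with several and 8730 with none listed. A gene with several was represented by the brightest. Coordinates are not given, since the sources name no build for the array.

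The 6 arrays were fitted together by genotype alone (limma 3.58.1 in R 4.3.3), with Benjamini-Hochberg adjustment over 22746 probe sets. The code was tested on simulated data. Replicate numbers of the labels were used as a block in a second fit, because deviations of same-numbered arrays from their group means correlated. Their r was 0.34, 0.21 and 0.21, each over the limit of 0.1, and differently numbered arrays had r from −0.35 to 0.094. Deviations from a mean cancel out within a genotype, so these values depend on each other and cannot show a shared batch. The labels do not say what same-numbered arrays share, so the block was an alternative and not the main fit. Blocked values are given where they change a call. The P450 genes, pathway lists and rule for named genes (called genes, separated genes, the brightest and those of known role) were chosen with earlier results of these data known. Calls over all probe sets and those of the P450 and pathway genes were recomputed under 8 other settings and without each array in turn. The calls of the tissue markers were recomputed with the block only, and all of them were kept.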

Additional observations from a re-analysis of the deposited data

How the results depend on the processing

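The number of calls moved with the settings, and the log2 changes of 13 of the 23 P450 genes kept their sign in every other setting that tested them and in all 6 fits that left out 1 array. Of those 13, 6 were too dim to be tested in the fit with dim probe sets left out. Over all probe sets, 870 were called, 1453 with the replicate block, 1496 with array weights and 92 to 834 when 1 array was left out. Of the 23 P450 genes 2 were called, against 4 with the block, 6 with array weights, 1 with median centring and 0 to 2 without 1 array. Those called higher numbered 0, against 2 with the block, 1 with trend, 1 with trend and robust, 3 with array weights, 1 with dim probe sets left out and 0 to 1 without 1 array. Those called lower numbered 2, against 1 with trend, 1 with trend and robust and 1 with median centring. The number was 1 with dim probe sets left out, where CYP84A4 was not tested, 3 with array weights and 0 to 2 without 1 array. Leaving out any hda9-1 array or Col replicate 1 left no P450 call. Their median change was −0.03, against 0.299 with dim probe sets left out, where fewer genes were tested, and −0.069 to 0.045 without 1 array. The glucosinolate list had 1 call, against 4 with the block, 0 after cyclic loess and 0 to 1 without 1 array. The phenylpropanoid list had 1, which is HCT or CCR2 depending on the setting, against 2 with array weights, 0 after cyclic loess and 0 to 1 without 1 array. The jasmonate list had 0, against 1 with array weights, 1 with dim probe sets left out and 0 to 1 without 1 array. The fits with fewer arrays have fewer degrees of freedom, and the cause of the other differences was not tested.

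Signs changed for 10 P450 genes and 5 pathway genes, none of which was called in any of these fits. With array weights CYP71B34 was at 0.024 and WSD1 at −0.012. Without 1 array, the log2 changes ran from −0.24 to 0.022 for CYP71B34, −0.102 to 0.201 for CYP71B5, −0.014 to 0.136 for CYP71B35 and −0.184 to 0.002 for CYP71B25. They ran from −0.238 to 0.017 for CYP71B29, −0.307 to 0.037 for CYP71B21, −0.103 to 0.054 for CYP71B27 and −0.115 to 0.111 for CYP71B30P. The ranges were −0.195 to 0.05 for CYP71B16, −0.09 to 0.045 for CYP71B31, −0.431 to 0.046 for AT5G20080 and −0.3 to 0.861 for DFR. Those of WSD1, Z-ISO and LUP5 were −0.054 to 0.043, −0.099 to 0.104 and −0.1 to 0.175. Of these 10 P450 and 5 pathway genes, CYP71B34, AT5G20080, DFR and Z-ISO had a mean signal above the median of all probe sets. The others were dim, and signal over background limits what dim probe sets can show. The cause of the changes of sign was not tested.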

Other observations

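CYP718, a P450 gene left out because its name has no letter, read 4.46, 4.16 and 4.30 on the hda9-1 arrays, against 4.59, 4.39 and 4.38 on the Col arrays. The groups overlapped, and the log2 change was −0.15 (SE 0.11, limma adjusted p = 0.551).

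The measured genes that lie next to the P450 runs, within 2 genes of either end, were not called. Beside the long run on chromosome 3, AT3G26140 was at −0.20 and AT3G26350 at −0.06. Beside the second run, AT3G53320 was at −0.38 (SE 0.09, limma adjusted p = 0.0564), AT3G53270 at 0.46 (SE 0.15, adjusted p = 0.137) and AT3G53310 at 0.07. Beside the chromosome 1 run, AT1G13050 was at 0.17 and AT1G13130 at −0.18.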
